A study of Mus musculus with 40 samples.

Results

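Glutamate and GABA are the main excitatory and inhibitory transmitters of the brain, and their receptors are built from subunits that each have a gene of their own. The receptor subunit genes described here were every symbol of the deposited count table that follows the naming series of these families, from Gria, Grik, Grin, Grid and Grm for glutamate to Gabr and Gabbr for GABA, and these were 44 of 26792 symbols. They comprised 4 AMPA, 5 kainate, 2 delta, 7 NMDA and 7 metabotropic glutamate receptor genes, 17 GABA-A genes and 2 GABA-B genes. A further 3 symbols of the series, Gabrp, Gabrr3 and Grm6, appeared only in a second deposited table, where they were listed at 0 in all 40 libraries.

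AMPA, kainate and NMDA receptors are ion channels of several subunits that open on binding glutamate, whereas metabotropic glutamate receptors act through G proteins. GABA-A receptors are chloride channels of mixed subunits, usually alpha, beta and gamma, and GABA-B receptors are G protein-coupled pairs of Gabbr1 and Gabbr2. Neurons carry most of these receptors, but astrocytes, the glial cells that take up both transmitters, are known to express some of them and to answer transmitter release with calcium signals.

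The messages were measured in microdissected hypothalami of mice carrying the Aldh1l1 eGFP-L10a transgene, in which regulatory sequence of the astrocyte gene Aldh1l1 drives a fluorescent tag on the ribosomal protein L10a. Translating ribosome affinity purification gave an immunoprecipitate, here called the pull-down, enriched for messages on tagged ribosomes, and the supernatant that was left. The groups were orchiectomised (testes removed, written ORX or GDX in the labels) mice on a high-fat diet (HFD) with 7 samples, sham-operated mice on HFD with 6 samples and sham-operated mice on chow with 7 samples. All mice carried the transgene and were on their diet for 4 weeks, and each of the 20 sample numbers has 1 library per fraction. Orchiectomised mice on chow were not analysed here. Since the labels do not say whether 1 sample number is 1 mouse, p-values cover only the spread from sample to sample, which may be technical.

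Total counts per library were 7714834 to 20792175 in the pull-downs, against 8739276 to 12931869 in the supernatants, and the 44 genes took 0.304% to 0.425% of them in the pull-downs, against 0.324% to 0.380% in the supernatants. These totals include mitochondrial genes, which took 0.643% to 1.63% in the pull-downs, against 19.2% to 27.8% in the supernatants. The shares of the 44 genes are therefore not directly comparable between the fractions. Levels are counts per 1000000 counts (CPM), scaled across libraries by TMM, and since the 3′ protocol yields 1 tag per message they depend little on gene length. All 14 astrocyte markers were higher in the pull-down (log2 fold change 3.30 to 5.57), and all 12 neuron markers were lower (-4.13 to -2.87), with summed neuron markers of 326 to 790 CPM in the pull-downs, against 4549 to 6233 CPM in the supernatants and no neuron marker at 0 throughout either fraction. All 8 oligodendrocyte and all 8 microglia markers were lower in the pull-down, all 6 endothelial markers were higher, of 6 oligodendrocyte precursor markers 3 were higher and 3 lower, and of 6 tanycyte and ependymal markers 1 was higher and 4 were lower. Gm42418, a gene that overlaps a ribosomal RNA repeat, took over 10% of the counts (13.3% to 18.2%) in 4 pull-downs, which were ORX HFD samples 11 and 22, sham HFD sample 1 and sham chow sample 8, and 1.07% to 8.51% in the other 16. These 4 pull-downs had summed neuron markers of 519 to 790 CPM, against 326 to 534 CPM in the other 16. Markers of some other cell types were higher in the 4 as well. Summed endothelial markers were 590 to 1198 CPM, with a median of 809, in the 4, against 139 to 964 CPM, with a median of 224, in the other 16. Medians of microglia markers were 87.7 CPM (67.3 to 130) in the 4, against 63.3 CPM (55.2 to 85.9). Those of oligodendrocyte precursor markers were 578 CPM (511 to 631), against 448 CPM (322 to 558), so both ranges overlapped. Medians differed less for oligodendrocyte markers (1036 against 974 CPM), tanycyte and ependymal markers (31.6 against 28.6 CPM) and astrocyte markers (49531 against 50372 CPM). The pull-down of sham chow sample 12 also stood apart, with the lowest Gabbr1, Gabrb1 and Grin3a of all pull-downs, and its effect on some single results is given beside them.

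Most receptor subunit messages were depleted from the pull-down, but 9 genes went the other way. In edgeR's quasi-likelihood test at a Benjamini-Hochberg adjusted p under 0.05, 40 of the 44 genes had enough counts to be tested, 9 were higher and 30 were lower in the pull-down, and Grin3a did not pass. Of all 15629 genes tested, 43.1% were called higher and 43.7% lower. The median log2 fold change of the receptor genes was -2.16, beside -0.01 for all genes tested. The pull-down and supernatant libraries did not overlap at all for 6 higher and 23 lower receptor genes, and 18.3% and 18.9% of all tested genes were higher and lower in this way. Fewer cells of a type and less message per cell cannot be told apart in such bulk samples.

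The higher genes included Grm3, Grin2c, Gabrg1, Gria1, Gabbr2, Gabrb1, Gabbr1 and Grik5, with log2 fold changes from 3.14 for Grm3 to 0.33 for Grik5. No receptor gene reached 3.30, the smallest change among the 14 astrocyte markers. On the lower side, 15 genes lay at or under -2.87, the smallest loss among the neuron markers, and another 15 that were called lower lay above it. The part that neuronal RNA carried into the pull-downs has in these levels was not tested.

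**Figure D1:**
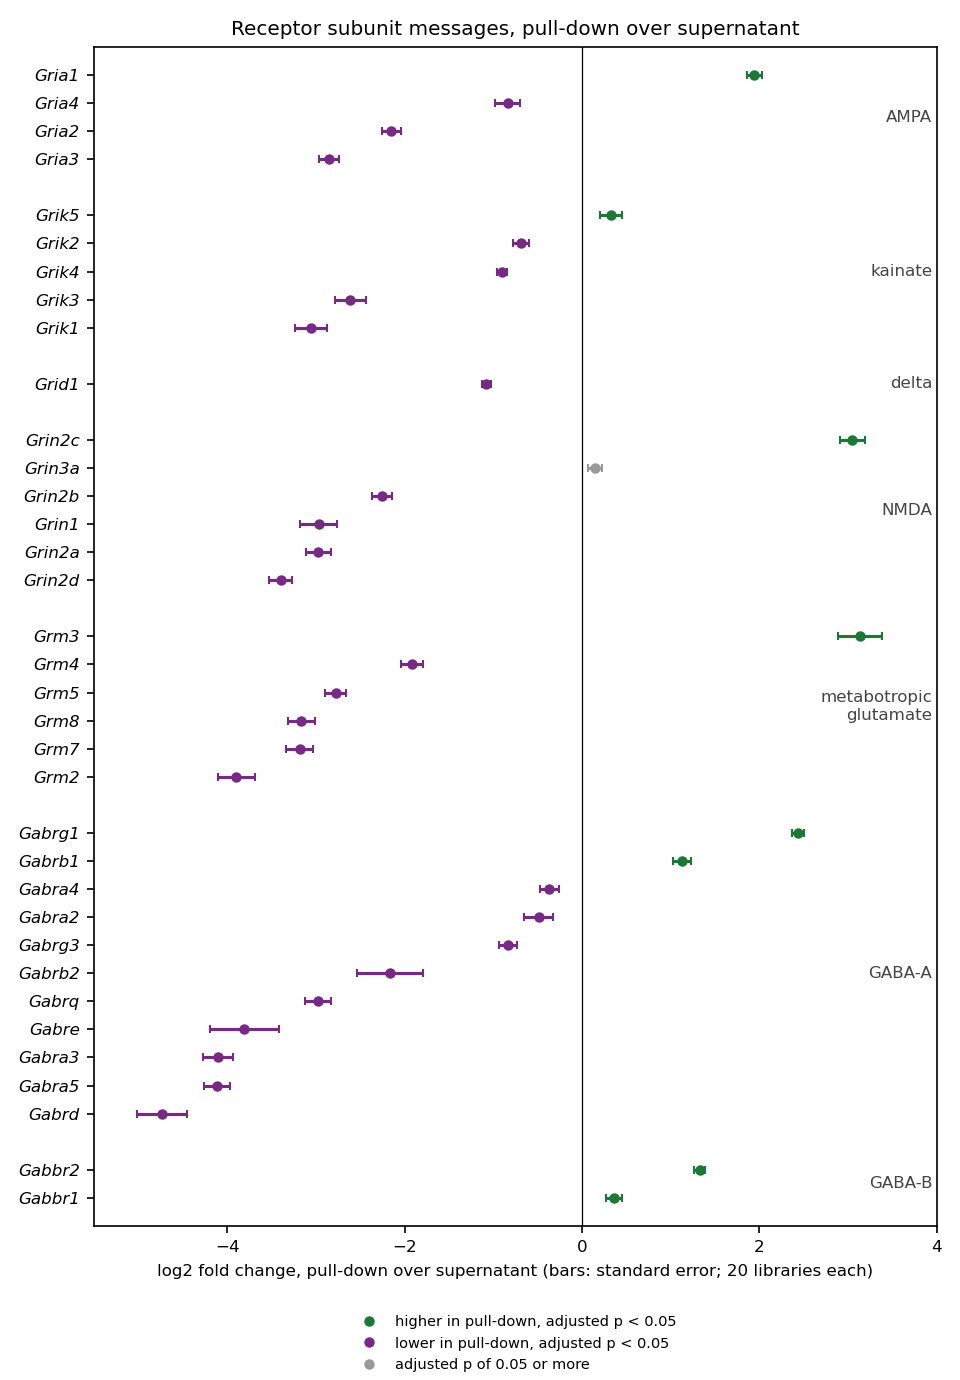
Log2 fold change of the pull-down over the supernatant (horizontal axis, bars are standard errors, 20 libraries each) for 35 of the 40 tested receptor subunit genes, grouped by receptor family. Green points are genes higher and purple points genes lower at an adjusted p under 0.05, and Grm3 lies farthest to the right and Gabrd farthest to the left.

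Gria1, which encodes the AMPA receptor subunit GluA1, was the most abundant receptor message of the pull-down. Across its 20 libraries it ran from 660 CPM through a median of 1082 CPM to 1169 CPM, against 177, 259 and 348 CPM in the supernatants. The fractions did not overlap, and Gria1 was higher in the pull-down in all 20 samples (log2 fold change 1.94 ± 0.09 SE, adjusted p = 1.15e-23). The other 3 AMPA genes were lower. Gria2, whose edited product makes AMPA channels impermeable to calcium, had 46.1 ± 12.3 CPM in the pull-downs, against 204 ± 41.8 CPM in the supernatants (SD, n = 20 each), a log2 fold change of -2.15 ± 0.10. Gria3 changed by -2.85 ± 0.12 and Gria4 by -0.84 ± 0.14.

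The AMPA family therefore had a different makeup in the 2 fractions. Gria1 made up 92.0 ± 3.23% of AMPA receptor tags in the pull-downs, against 43.9 ± 3.91% in the supernatants (SD, n = 20 each). Gria2 held 4.50 ± 1.95% of them in the pull-downs, against 34.1 ± 2.44% in the supernatants. Within a library, the Gria1 count was 7.77 to 30.3 times that of Gria2 in the pull-downs, with a median of 26.0, and 1.00 to 1.71 times in the supernatants, with a median of 1.30. The 4 lowest Gria1 shares of the pull-downs were those of the 4 pull-downs rich in Gm42418, and even the lowest, 83.6%, was above the highest supernatant share, 49.4%. No test was run on these shares, which describe tags and not assembled receptors.

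The kainate receptor genes were all low, with summed levels of 34.4 to 53.0 CPM in the pull-downs, against 70.8 to 112 CPM in the supernatants. Grik1, Grik2 and Grik3 encode subunits that can form channels without partners, while Grik4 and Grik5 encode high-affinity subunits that need them. Grik2 led the family in both fractions, with 17.9 ± 2.63 CPM in the pull-downs, against 29.2 ± 6.92 CPM in the supernatants. It was lower in the pull-down (-0.69 ± 0.09), as were Grik4 (-0.90 ± 0.06), Grik3 (-2.61 ± 0.18) and Grik1 (-3.06 ± 0.18). The Grik1 level is uncertain, because its summed count is 4766 in the count table and comes to 2048 from the second table.

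Grik5 had 5.85, 9.09 and 19.1 CPM (lowest, median, highest) in the pull-downs and 4.12, 7.63 and 10.9 CPM in the supernatants. It was higher in the pull-down in 14 of 20 samples, the ranges overlapped, and its change of 0.33 ± 0.13 passed narrowly (adjusted p = 0.0156). The call held in 5 of 9 alternatives, which were DESeq2 (adjusted p = 0.0480), limma voom, no filter on low counts, a block for sample number and leaving out sample number 12. It was lost in the other 4: the change was 0.26 (adjusted p = 0.0522) under RLE scaling, 0.15 (adjusted p = 0.282) without the 4 samples rich in Gm42418 and 0.21 (adjusted p = 0.102) in the second table, and it turned to -0.03 when libraries were scaled to their totals without mitochondrial genes and Gm42418, a scaling that moved the median of all genes to -0.37.

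The delta receptor genes are related to the other glutamate channels but encode receptors that bind cerebellins and not glutamate. Grid1 had 22.7, 28.6 and 33.5 CPM in the pull-downs against 51.4, 60.3 and 70.1 CPM in the supernatants. It was lower in the pull-down in all 20 samples, with no overlap (log2 fold change -1.08 ± 0.05).

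NMDA receptors need the subunit GluN1, encoded by Grin1, together with glutamate-binding GluN2 subunits (Grin2a to Grin2d) or glycine-binding GluN3 subunits (Grin3a, Grin3b). Grin2c, on chromosome 11, was the only NMDA gene called higher in the pull-down. It ran from 76.1 CPM through a median of 116 CPM to 167 CPM in the pull-downs, against 6.87, 12.4 and 26.3 CPM in the supernatants. All 20 samples had the higher level in the pull-down, with no overlap (log2 fold change 3.05 ± 0.14, adjusted p = 1.86e-22). Grin1 had 6.26, 8.42 and 37.7 CPM in the pull-downs against 86.7, 98.2 and 131 CPM in the supernatants (-2.97 ± 0.21, adjusted p = 3.19e-16). Grin2a (-2.97 ± 0.14), Grin2b (-2.26 ± 0.12) and Grin2d (-3.40 ± 0.13) were lower as well.

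Grin3a was the second most abundant NMDA message of the pull-down, with 67.9 ± 12.6 CPM in the pull-downs, against 61.0 ± 7.38 CPM in the supernatants. Its change of 0.15 ± 0.08 did not pass (adjusted p = 0.0726). Without sample number 12, whose pull-down had the lowest Grin3a level, 29.6 CPM, it passed at 0.20 (adjusted p = 0.00290), as it did at 0.21 (adjusted p = 0.0171) with no filter on low counts, and it turned to -0.21 (adjusted p = 0.00907) with libraries scaled to their totals without mitochondrial genes and Gm42418. Grin3b had 68 counts over all pull-downs and 58 over all supernatants and was not tested.

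By tags, Grin2c held 48.0 ± 8.76% of the NMDA family in the pull-downs, against 3.35 ± 1.28% in the supernatants, while Grin2b held 15.4% in the pull-downs, with a range of 10.4% to 26.2%, and led the supernatants with 41.5%, with a range of 31.4% to 48.8%. Grin1 made up 5.28 ± 3.58% of the family in the pull-downs, against 24.0 ± 3.86% in the supernatants. A pull-down held 2.17 to 23.0 Grin2c tags per Grin1 tag, with a median of 13.1, and a supernatant held 0.0725 to 0.277. The Grin1 level of the pull-downs split with Gm42418: it was 24.5 to 37.7 CPM in the 4 rich pull-downs and 6.26 to 12.0 CPM in the other 16. On the opposite strand Grin1 overlaps Grin1os at its 3′ end, Grin2c overlaps Gm25837 and Grin2d overlaps Gm45441. The strand setting of the counting is not given in the sources used here, so reads of such pairs may not have been told apart.

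Metabotropic glutamate receptors include some that raise calcium through Gq, such as Grm5, and others that act through Gi, such as Grm2 and Grm3 or Grm4, Grm7 and Grm8. Grm3, a gene long associated with astrocytes, had the largest increase of all tested receptor genes. Its level was 21.0, 49.4 and 64.9 CPM (lowest, median, highest) in the pull-downs and 0.354, 5.04 and 12.0 CPM in the supernatants. The pull-down was higher in all 20 samples without overlap (log2 fold change 3.14 ± 0.25, adjusted p = 1.35e-14). The supernatants varied widely. Those with Gabrb2 at 5.69 CPM or more all had Grm3 at 5.48 CPM or more. The others, with Gabrb2 at 3.47 CPM or less, all had less Grm3 than these. This split was seen only after the values were known, and its cause was not tested. The supernatant with the highest Grm3, sham chow sample 12, had the lowest summed astrocyte markers, 1612 CPM. The one with the most astrocyte markers, ORX HFD sample 22 (4806 CPM), had 6.66 CPM of Grm3. The supernatant with the lowest Grm3, ORX HFD sample 2, had the highest Gabra3 level, 189 CPM, of any library.

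The other 6 Grm genes were lower in the pull-down, each without overlap between the fractions. Grm2, the closest relative of Grm3, was lowest of them (-3.90 ± 0.21), with 0.321 ± 0.241 CPM in the pull-downs, against 4.90 ± 0.953 CPM in the supernatants. Grm7 changed by -3.18 ± 0.16, Grm8 by -3.16 ± 0.15 and Grm4 by -1.92 ± 0.13. Grm5, described in immature astrocytes as well as in neurons, had 10.5, 21.8 and 45.3 CPM in the pull-downs against 115, 156 and 212 CPM in the supernatants (-2.78 ± 0.12, adjusted p = 5.01e-24). Of all metabotropic receptor tags, Grm3 held 51.5 ± 9.36% in the pull-downs, against 1.58 ± 0.924% in the supernatants. Grm5 held 24.7 ± 7.17% in the pull-downs, against 47.7 ± 4.51% in the supernatants.

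**Figure D2:**
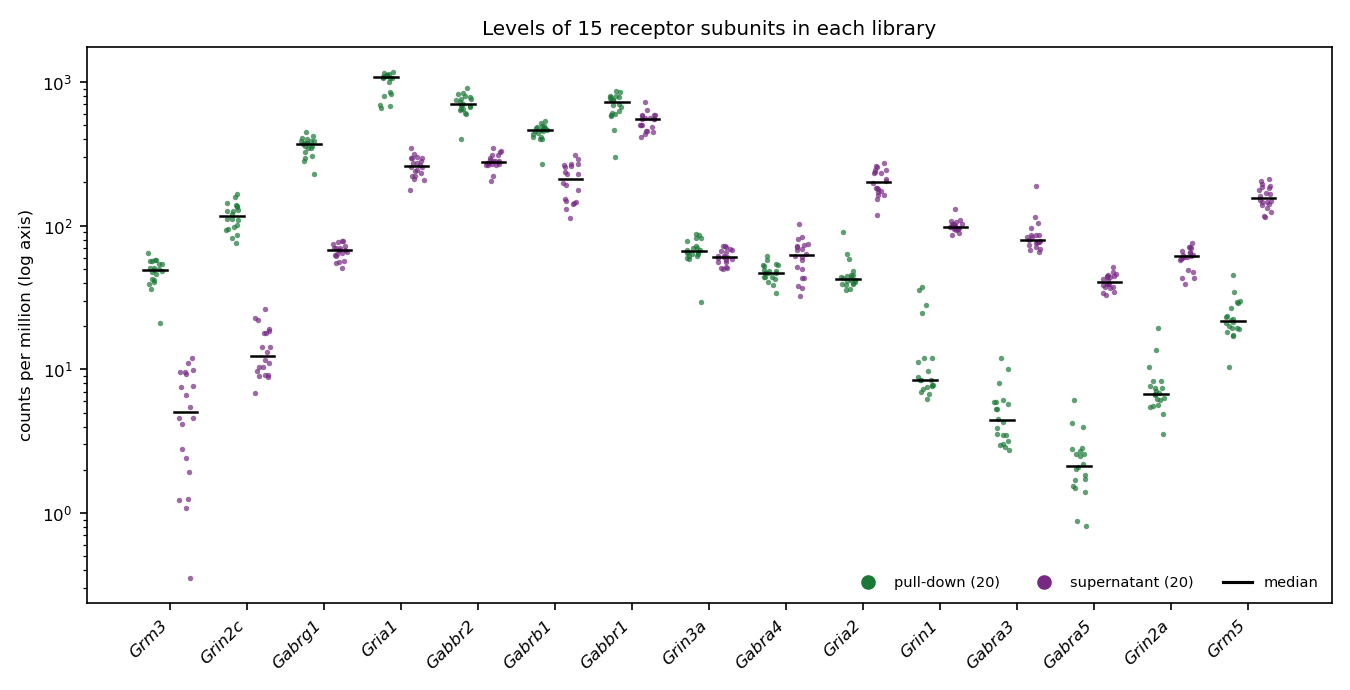
Level in each library (CPM, log axis) of 15 receptor subunit genes in the 20 pull-downs (green, left) and 20 supernatants (purple, right), with the median as a line. Grm3, Grin2c, Gabrg1, Gria1 and Gabbr2 do not overlap and are higher in the pull-down, Gabra3, Gabra5 and Grin2a do not overlap and are lower, Grin1 shows 4 pull-downs well above the rest, and Grin3a differs little.

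The promoters of Grm3 and Grin2c, the genes with the largest increases, are shown because their messages stood out most in the pull-down. Each sequence runs 5′ to 3′ from 250 bases before to 50 bases after the start site, from RefSeq on GRCm38.p6, and capitals mark GC boxes (GGGCGG on either strand, a sequence bound by Sp factors).
Grm3 promoter (chr5:9725303-9725602, minus strand): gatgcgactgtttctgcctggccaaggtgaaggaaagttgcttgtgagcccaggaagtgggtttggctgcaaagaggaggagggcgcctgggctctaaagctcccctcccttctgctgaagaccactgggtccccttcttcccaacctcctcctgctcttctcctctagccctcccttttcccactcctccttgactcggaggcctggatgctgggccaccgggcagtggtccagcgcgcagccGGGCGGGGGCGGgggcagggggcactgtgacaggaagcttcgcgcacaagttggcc
Grin2c promoter (chr11:115267194-115267493, minus strand): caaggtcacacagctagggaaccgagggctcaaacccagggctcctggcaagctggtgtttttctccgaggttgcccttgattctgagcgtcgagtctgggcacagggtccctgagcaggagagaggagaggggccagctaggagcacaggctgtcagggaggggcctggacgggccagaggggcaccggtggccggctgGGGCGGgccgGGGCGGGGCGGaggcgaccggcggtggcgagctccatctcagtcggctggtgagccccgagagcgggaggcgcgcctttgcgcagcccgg
Both windows held GC boxes, 2 side by side around the start site of Grm3 and 3 before that of Grin2c, a pair of which overlap by a base. RefSeq windows were found for 29 of the 44 genes, 36 windows in all. GC boxes were in 5 of 8 windows of higher genes and in 13 of 24 windows of lower genes, beside 35.7% of all 32851 promoter windows. The NFI half-site TTGGCA, searched on both strands, was in 0 of the 8 and 1 of the 24, beside 14.1% of all windows.

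GABA-A receptors showed the same division between a few higher and many lower genes, and here the higher pair lay in the same gene cluster. Of 17 genes 14 were tested, Gabrg1 and Gabrb1 were higher in the pull-down and 12 were lower. Gabrg1, one of the gamma subunits, had 227, 371 and 447 CPM in the pull-downs against 50.7, 67.6 and 78.1 CPM in the supernatants, with no overlap (log2 fold change 2.44 ± 0.07, adjusted p = 4.61e-30). Gabrb1, a beta subunit, had 270, 460 and 534 CPM in the pull-downs against 114, 213 and 312 CPM in the supernatants (1.13 ± 0.11, adjusted p = 5.40e-13). It was higher in the pull-down in 19 of 20 samples, and the exception was sample number 12, which had the lowest pull-down and the highest supernatant level.

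Among the lower GABA-A genes were the subunit genes Gabra5 (-4.12 ± 0.14), Gabra3 (-4.11 ± 0.17), Gabre (-3.81 ± 0.39), Gabrq (-2.97 ± 0.15) and Gabrb2 (-2.16 ± 0.38). Gabrb2 was lower in the pull-down in 16 of 20 samples and higher in 4, and the ranges overlapped. Its supernatants varied widely, from 0.619 to 20.0 CPM. Gabre had only 12 counts over all pull-downs and 155 over all supernatants, and its ranges overlapped as well. Gabra5 had 0.818, 2.14 and 6.10 CPM in the pull-downs against 32.9, 40.7 and 51.7 CPM in the supernatants. Gabra3 had 2.74, 4.41 and 12.0 CPM in the pull-downs against 65.4, 79.1 and 189 CPM in the supernatants, and neither gene overlapped between the fractions. Gabrd, the subunit of many receptors outside synapses, had the lowest value of all receptor genes, -4.73 ± 0.28, with 56 counts over all pull-downs and 1359 over all supernatants.

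Other alpha and gamma genes were lower by much less. Gabra4 changed by -0.37 ± 0.10 (adjusted p = 0.00141), with 47.6 ± 6.52 CPM in the pull-downs, against 61.7 ± 17.9 CPM in the supernatants, and Gabra2 by -0.49 ± 0.16 (adjusted p = 0.00482), with 54.5 ± 25.9 CPM in the pull-downs, against 76.7 ± 23.8 CPM in the supernatants. Both ranges overlapped between fractions, and Gabrg3 changed by -0.84 ± 0.10. Gabra2 split by sample number, with ORX HFD sample 14, sham HFD sample 20 and sham chow sample 21 apart from the rest. In that order they had 111, 110 and 118 CPM in the pull-downs, where the others had 31.8 to 56.7 CPM. Their supernatants had 127, 108 and 150 CPM, where the others had 59.4 to 77.9 CPM. The cause of this split was not tested. Gabra6 had 3 counts in all pull-downs and 1 in all supernatants, Gabrr1 had 1 and 8 in that order and Gabrr2 had 12 and 106, so these were not tested. In a library, 3 counts stand for 0.144 to 0.389 CPM in the pull-downs, against 0.232 to 0.343 CPM in the supernatants, which covers counting error only.

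By subunit class, Gabrb1 held 91.8% to 96.2% of beta tags in the pull-downs, against 59.8% to 73.9% in the supernatants. Gabrg1 held 94.0 ± 2.86% of gamma tags in the pull-downs, against 30.3 ± 3.78% in the supernatants. Among alpha tags, Gabra2 held 40.3 ± 11.1% in the pull-downs, against 13.4 ± 3.31% in the supernatants. Its share ran from 23.9% to 62.4% in the pull-downs and from 9.55% to 22.2% in the supernatants. Gabra4 held 37.0 ± 5.95% in the pull-downs, against 10.8 ± 2.87% in the supernatants. Alpha tags were scarcer than beta or gamma tags in the pull-down, with 132 ± 27.8 CPM of alpha, 476 ± 57.7 CPM of beta and 381 ± 46.3 CPM of gamma in the pull-downs, against 567 ± 50.9, 302 ± 78.8 and 220 ± 14.9 CPM in the supernatants.

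**Figure D3:**
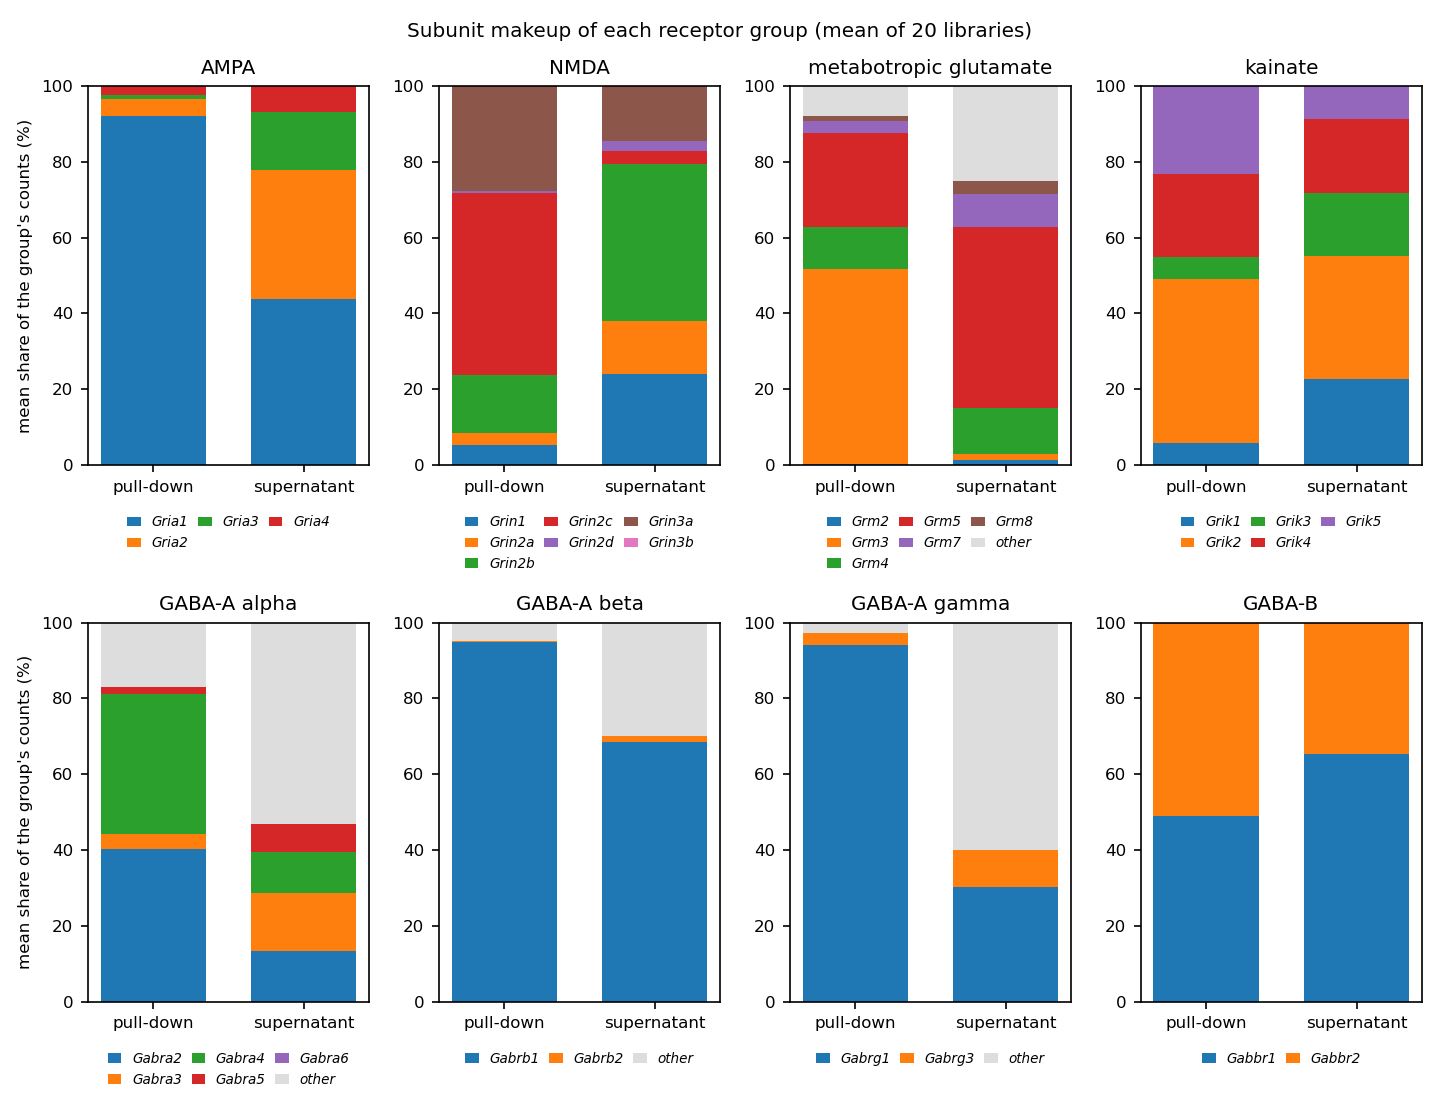
Mean share of single subunits in the tags of their receptor family or subunit class (vertical axis, percent, 20 libraries per bar) in the pull-down (left bar) and the supernatant (right bar), with grey for other members. Gria1, Gabrb1 and Gabrg1 fill over 90% of their pull-down bars, and Grin2c and Grm3 are wide there and thin in the supernatant.

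GABA-A genes lie in clusters. On chromosome 5 (GENCODE M21 on GRCm38) Gabrg1 (70751047 to 70842617), Gabra2 (70957597 to 71095849), Gabra4 (71569749 to 71658308) and Gabrb1 (71658113 to 72149037) follow each other, and they changed by 2.44, -0.49, -0.37 and 1.13 on the log2 scale. The X chromosome cluster of Gabre, Gabra3 and Gabrq was lower by 2.97 or more in each gene. Genes of a cluster are not independent, and no test was run on this order.

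Gabra4 and Gabrb1 are transcribed from opposite strands. Their RefSeq start sites are 387 bases apart and each lies inside the other gene, yet Gabra4 was lower and Gabrb1 higher in the pull-down. Their promoters are shown with that of Gabrg1, in the same format.
Gabrg1 promoter (chr5:70842568-70842867, minus strand): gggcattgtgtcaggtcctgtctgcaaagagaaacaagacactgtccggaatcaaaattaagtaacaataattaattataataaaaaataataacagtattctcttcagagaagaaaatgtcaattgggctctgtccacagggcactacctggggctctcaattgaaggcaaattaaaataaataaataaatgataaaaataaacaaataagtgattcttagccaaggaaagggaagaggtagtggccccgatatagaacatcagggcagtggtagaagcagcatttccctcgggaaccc
Gabrb1 promoter (chr5:71657671-71657970, plus strand): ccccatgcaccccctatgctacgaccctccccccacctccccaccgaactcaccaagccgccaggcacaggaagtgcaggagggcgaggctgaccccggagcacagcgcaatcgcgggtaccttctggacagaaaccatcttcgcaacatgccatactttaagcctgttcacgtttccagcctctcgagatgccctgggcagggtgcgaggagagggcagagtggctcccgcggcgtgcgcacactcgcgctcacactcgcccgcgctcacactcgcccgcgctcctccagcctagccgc
Gabra4 promoter (chr5:71658259-71658558, minus strand): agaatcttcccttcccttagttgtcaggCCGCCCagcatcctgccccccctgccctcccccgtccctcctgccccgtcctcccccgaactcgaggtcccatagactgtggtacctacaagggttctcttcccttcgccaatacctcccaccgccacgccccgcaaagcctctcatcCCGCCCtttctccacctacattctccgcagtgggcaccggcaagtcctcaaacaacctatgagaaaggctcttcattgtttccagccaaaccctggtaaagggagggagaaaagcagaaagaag
Of these windows Gabra4 alone held GC boxes, 2 of them, both as CCGCCC. The Gabrg1 window had a GC content of 38.3%, against 66.0% for Gabrb1, 58.7% for Gabra4 and a median of 52.7% over all promoter windows. A second RefSeq start of Gabrb1 lies at chr5:71699682-71699981 and had no GC box either.

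The GABA-B genes were both higher in the pull-down, and in the pull-down they were the most abundant receptor messages after Gria1. Gabbr1, which binds GABA, had 303, 723 and 863 CPM in the pull-downs against 416, 553 and 724 CPM in the supernatants. It was higher in the pull-down in 18 of 20 samples, but the ranges overlapped and the change was small (log2 fold change 0.36 ± 0.09, adjusted p = 0.000243). Without sample number 12 the Gabbr1 change was 0.39 (adjusted p = 3.00e-06 in edgeR). Gabbr2, which couples the pair to the G protein, had 402, 701 and 915 CPM in the pull-downs against 205, 279 and 347 CPM in the supernatants, with no overlap (1.33 ± 0.06, adjusted p = 1.34e-22). Scaling to library totals without mitochondrial genes and Gm42418 put Gabbr1 at -0.01 (adjusted p = 0.869), while the median of all genes moved to -0.37 and the calls over all genes went to 4968 higher and 8541 lower, where TMM gave 6735 and 6826.

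Gabbr2 tags were about as many as those of Gabbr1 in the pull-down and fewer in the supernatant. The share of Gabbr2 in the pair was 50.9 ± 6.15% in the pull-downs, against 34.6 ± 3.55% in the supernatants. Within a library there were 0.813 to 2.78 Gabbr2 tags per Gabbr1 tag in the pull-downs, with a median of 0.976, and 0.395 to 0.682 in the supernatants. The highest ratio was in the pull-down of sham chow sample 12, where Gabbr1 was at 303 CPM and Gabbr2 at 842 CPM.

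Genes that act with these receptors were mostly lower in the pull-down, with single exceptions in several lists, which were chosen with earlier results of the data known. For comparison with each list, 43.7% of all genes tested were called lower and 43.1% higher. Of 14 AMPA receptor auxiliary genes, 11 were lower and 2 higher (median -2.40), and the 4 with the smallest p, Olfm1 (-2.20), Cacng3 (-4.18), Cacng2 (-4.55) and Frrs1l (-3.27), were all lower. The higher pair were Shisa9 (1.21) and Cacng8 (0.38), named after their values were seen. Both kainate auxiliary genes, Neto1 (-3.26) and Neto2 (-2.13), were lower. Of 22 postsynaptic scaffold and adhesion genes of glutamate synapses, 16 were lower, led by Shank1 (-3.89) and the cerebellins Cbln1 (-4.35) and Cbln2 (-4.20) that bind delta receptors, with a median of -1.61 over the list. The 3 that were higher, named after their values were seen, were Homer3 (1.85), Dlgap1 (0.69) and Nlgn1 (0.24).

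The 13 tested GABA-A scaffold and trafficking genes were closer to balance, with 4 higher and 9 lower and a median log2 fold change of -0.26. Lhfpl4, an auxiliary subunit of synaptic GABA-A receptors, changed by -1.60, and Gabarapl1 by -1.52, whereas Gabarap, which binds gamma subunits, was higher (1.14). Also higher, and named after their values were seen, were Clptm1 (0.58), Trak1 (0.39) and the gephyrin gene Gphn (1.04), the last with 78.5 ± 7.54 CPM in the pull-downs, against 38.7 ± 15.0 CPM in the supernatants. Of the 8 GABA-B auxiliary and effector genes, 2 were higher, Kctd12b (4.16, with 49.8 ± 6.67 CPM in the pull-downs, against 2.85 ± 1.29 CPM in the supernatants) and, named after its value was seen, Kctd12 (0.94), both encoding proteins that bind the GABA-B receptor. The other 6 were lower, among them Kctd8 (-3.30) and the potassium channel genes Kcnj3 (-2.97) and Kcnj9 (-2.87).

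Genes of the transmitters themselves divided by role with 1 exception. All 7 genes of transmitter synthesis and vesicle loading were lower, beside 43.7% of all tested genes. They included Slc17a7 (-4.99), Slc32a1 (-4.59), Slc17a6 (-3.71) and Gad1 (-3.16). Of 11 uptake and breakdown genes, 10 were higher, beside 43.1% of all tested genes. They included Abat (2.84), which degrades GABA, Glul (3.30), which makes glutamine from glutamate, and the amino acid transporter Slc1a4 (2.07). Glul and some others of the list are themselves astrocyte markers here, so the count is not independent of those markers. The exception, named after its value was seen, was the glutamate transporter gene Slc1a1, which was lower (-2.50). All 4 tested glycine receptor genes were lower, Glra1 the most (-4.19).

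Diet and orchiectomy, by contrast, left no receptor gene past the threshold in either fraction. The diet was compared between sham groups, orchiectomy between the HFD groups, and the combined treatment against sham chow, with 37 receptor genes tested in the pull-down, where Gabrd, Gabre and Grm2 had too few counts, and 40 in the supernatant. The 3 comparisons within a fraction share libraries. In all 6 comparisons and both fraction interactions, 0 receptor genes had an adjusted p under 0.05 by edgeR, and likewise 0 by DESeq2, by limma voom and in the second table. Over all genes, edgeR called 0 (0%) in 6 of the 8, 2 of 14059 (0.0142%) for the combined treatment in the pull-down and 1 of 15629 (0.0064%) for the interaction of orchiectomy. The median size of a receptor gene's treatment difference in the pull-down was 0.10 for diet, 0.16 for orchiectomy and 0.20 for both together on the log2 scale, beside a median SE of 0.19, 0.19 and 0.19.

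For HFD against chow in the pull-down, 1 receptor gene had an unadjusted p under 0.05, where all genes gave 1.71%. It was Gria4, with 19.1, 22.6 and 46.4 CPM (lowest, median, highest) in sham HFD pull-downs and 10.9, 18.6 and 27.8 CPM in sham chow pull-downs (log2 fold change 0.45 ± 0.22, adjusted p = 1.00 in edgeR). Its highest value was that of sham HFD sample 1, rich in Gm42418, and its lowest that of sham chow sample 12. Without sample number 12, 0 receptor genes had p under 0.05 in this comparison and the Gria4 change was 0.37, and without the samples rich in Gm42418 it was 0.30 and the genes with p under 0.05 were 2 others, Grm3 (0.25) and Gabrb2 (0.92). Next in order were Grik4 (-0.20 ± 0.12) and Gabrb2 (0.69 ± 0.42). The change was above 0 for 27 of 37 receptor genes, beside 47.2% of all genes, and for 19 of 37 without sample number 12, whose pull-down was low for many of them. The median change over all genes without sample number 12 was 0.001. In the supernatant the 1 gene with p under 0.05 was Grm2 (-0.32 ± 0.16, adjusted p = 0.904), where all genes gave 1.41%, followed by Grin2d (0.26 ± 0.15), and without sample number 12 it was 0 genes. For the interaction of diet with fraction, 2 genes had p under 0.05, Grik4 (-0.33 ± 0.15) and Gria4 (0.72 ± 0.35), all genes gave 2.55%, and Gabre (-2.18 ± 1.13) came next. Of these interactions 31 of 40 were above 0, beside 49.4% of all genes. Without sample number 12, Grik4 alone had p under 0.05 and 22 of 40 were above 0, and without the samples rich in Gm42418 these were 0 genes and 20 of 40. Over all genes, the median interaction was -0.01 without sample number 12, and 7121 of 15686 were above 0 without the samples rich in Gm42418.

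For ORX against sham on HFD in the pull-down, 4 of 37 receptor genes had an unadjusted p under 0.05, where all genes gave 6.53%. Gabbr2 had the smallest p, with 402, 637 and 693 CPM in ORX HFD pull-downs and 668, 782 and 915 CPM in sham HFD pull-downs. The groups overlapped only slightly, and the change was -0.36 ± 0.10 (adjusted p = 0.722 in edgeR). Its adjusted p ran from 0.276 to 0.735 over the other settings. The Gabbr2 levels of ORX HFD supernatants, with a median of 279 CPM, and of sham HFD supernatants, with a median of 281 CPM, differed by 0.03 ± 0.10, and the interaction with fraction was -0.41 ± 0.15 (adjusted p = 0.941). Of the pull-downs in this contrast, ORX HFD samples 11 and 22 and sham HFD sample 1 were rich in Gm42418, and without them and their chow counterpart the Gabbr2 change was -0.31 (adjusted p = 0.276).

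Grin2c was second, with 81.6, 97.9 and 127 CPM in ORX HFD pull-downs and 76.1, 139 and 158 CPM in sham HFD pull-downs (-0.37 ± 0.15, adjusted p = 0.741). Its lowest sham HFD value belonged to sample 1, rich in Gm42418, and the other 5 lay above all but 1 of the ORX HFD values. Grm4, named after its value was seen, was among the 4 genes as well (-0.41 ± 0.19). Summed neuron markers were 385 to 790 CPM in ORX HFD pull-downs and 382 to 721 CPM in sham HFD pull-downs, and summed endothelial markers had medians of 324 CPM in ORX HFD pull-downs and 215 CPM in sham HFD pull-downs. All 6 endothelial markers had a change above 0, with a median of 0.76, and 0 of them had an unadjusted p under 0.05. The part of these cell types in the receptor differences was not tested.

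In the supernatant 1 gene had p under 0.05 between ORX and sham on HFD, Gabra5, with 32.9, 37.5 and 44.4 CPM in ORX HFD supernatants and 39.0, 43.6 and 47.2 CPM in sham HFD supernatants (-0.22 ± 0.10, adjusted p = 0.945). All genes gave 3% there, and Grid1 (-0.14 ± 0.07) and Grin1 (-0.16 ± 0.08) followed. For the interaction of orchiectomy with fraction, where all genes gave 4.43%, Gabbr2 was the 1 gene with p under 0.05, and Gabre (1.66 ± 1.11) and Gabrq (0.47 ± 0.35) followed. Without the samples rich in Gm42418, 0 receptor genes had p under 0.05 in either of these, and the Gabbr2 interaction was -0.27.

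For ORX on HFD against sham on chow in the pull-down, 5 of 37 receptor genes had p under 0.05, where all genes gave 11.1%. Among them were Gabbr2 (-0.27 ± 0.10, adjusted p = 0.388) and Gria4 (0.48 ± 0.21), and, named after their values were seen, Grin2c (-0.31 ± 0.14) and Gabrb1 (0.21 ± 0.10). Gabbr2 had a median of 637 CPM in ORX HFD pull-downs and 731 CPM in sham chow pull-downs. Without sample number 12, 4 genes had p under 0.05, Gria4 (0.39) and Gabrb1 (0.14) no longer among them. Summed endothelial markers had medians of 324 CPM in ORX HFD pull-downs and 187 CPM in sham chow pull-downs, with a median change of 1.08 over the 6 genes, 5 of them at an unadjusted p under 0.05 and 0 past the adjusted threshold, and their part was not tested. In the supernatant Gabra5 was again the 1 gene with p under 0.05 (-0.21 ± 0.09, adjusted p = 1.00), where all genes gave 2.26%, with Grid1 (-0.14 ± 0.07) and Grin1 (-0.12 ± 0.08) next. Without sample number 12, Grid1 (-0.17) had p under 0.05 as well, and without the samples rich in Gm42418 no receptor gene did.

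**Figure D4:**
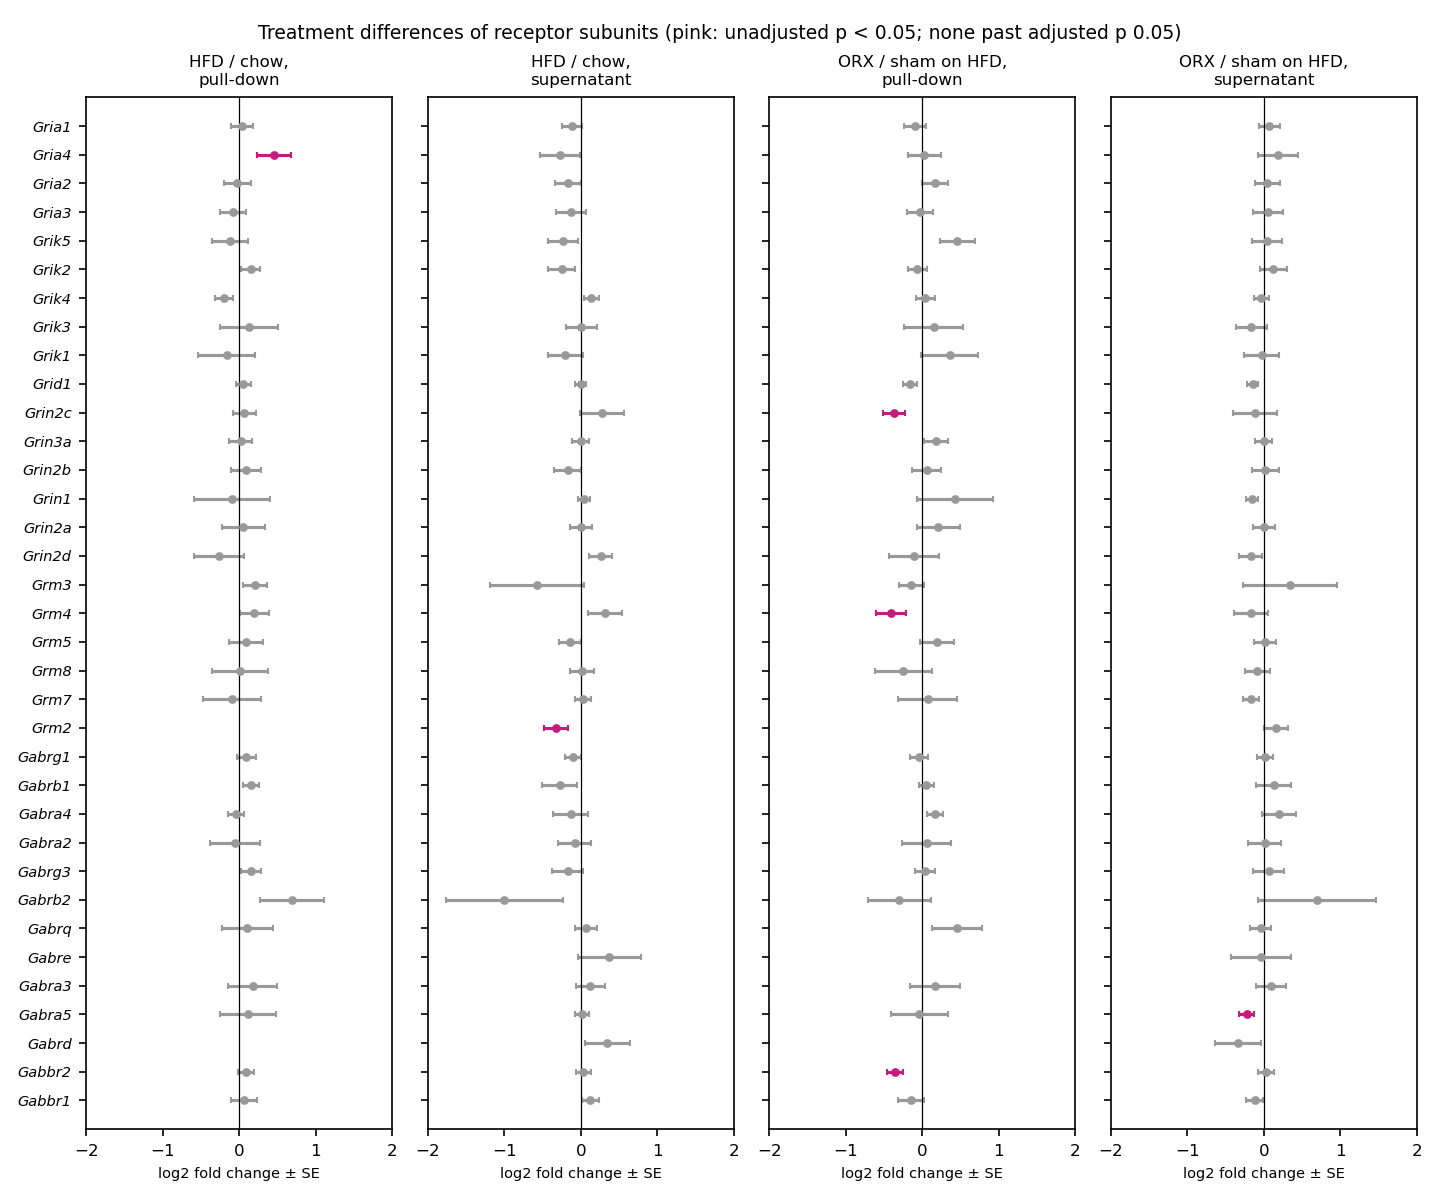
Log2 fold change with its standard error of 35 receptor subunit genes, where tested, for HFD over chow in sham mice and for ORX over sham on HFD, in the pull-down and the supernatant. Pink points have an unadjusted p under 0.05, among them Gabbr2 and Grin2c after orchiectomy in the pull-down, and no point passed an adjusted p of 0.05.

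Levels of the genes enriched in the pull-down overlapped between the treatment groups. Grm3 averaged 47.3 ± 12.1 CPM in 7 ORX HFD pull-downs, 52.9 ± 8.49 CPM in 6 sham HFD pull-downs and 45.5 ± 7.88 CPM in 7 sham chow pull-downs (SD). Gabbr1 averaged 650 ± 117, 724 ± 85.4 and 691 ± 193 CPM in those groups, and the lowest chow value, 303 CPM, was that of sample 12. Gria1 averaged 956 ± 181, 1032 ± 185 and 1004 ± 172 CPM. The pull-downs rich in Gm42418 held 660 to 846 CPM of Gria1, against 681 to 1169 CPM in the other 16.

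**Figure D5:**
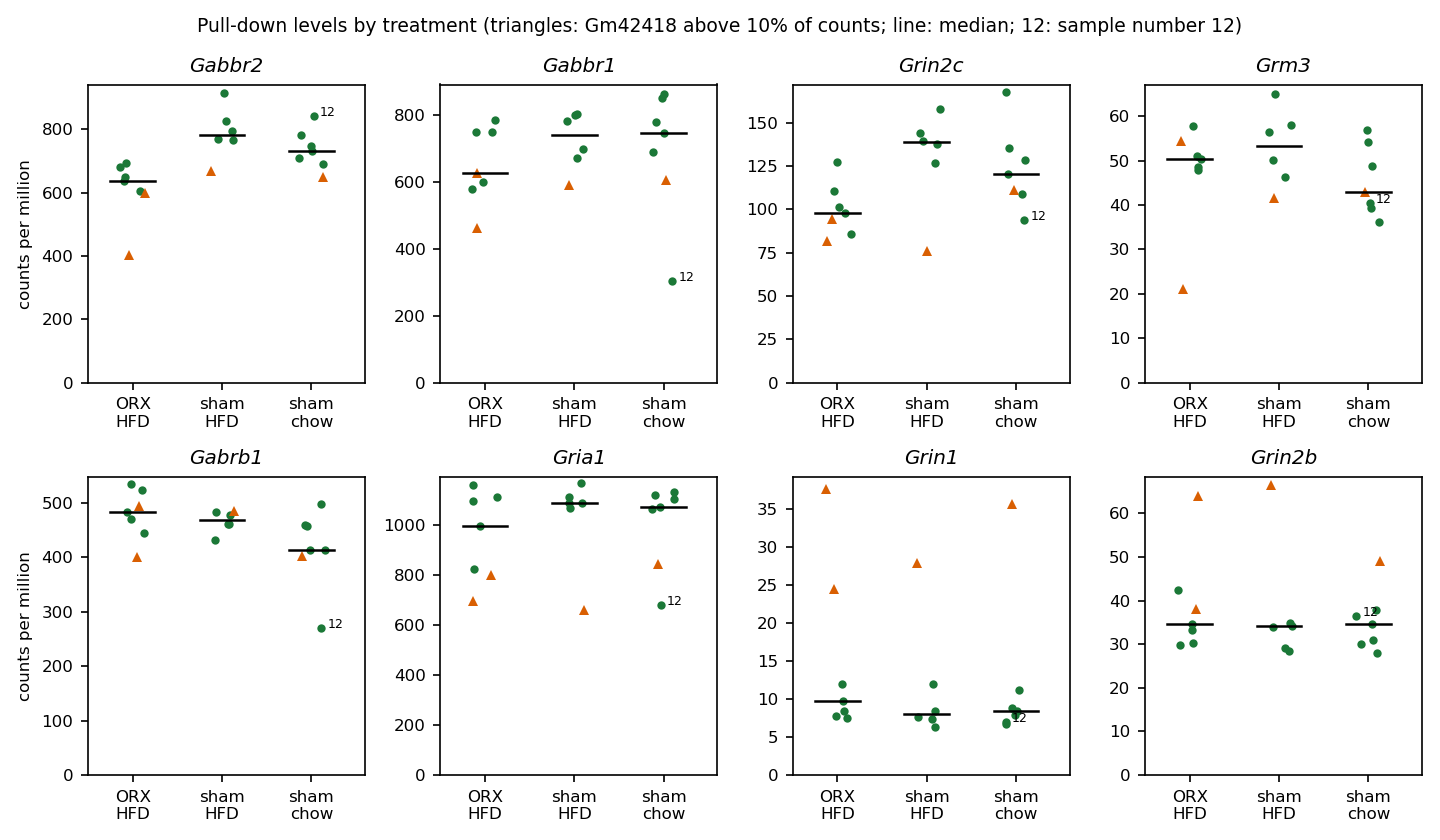
Pull-down level (CPM) of 8 receptor subunit genes in ORX HFD, sham HFD and sham chow mice, with the median of each group as a line and triangles for the 4 pull-downs in which Gm42418 took over 10% of counts. The triangles are the highest points of Grin1 in every group, and Gabbr2 lies lowest in ORX HFD mice with overlap between groups.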

How the data were processed

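Messages were tagged at their 3′ ends (QuantSeq 3′ FWD), and the labels place 40 libraries in 2 fractions and 3 treatment groups. Per the submitters' processing notes the tools were Trim Galore 0.6.4 and Salmon 1.9.0 with the build GRCm38. For the annotation and the strand setting, the sources used here say nothing. The deposited values are estimated counts per symbol, 12.7% of the non-zero ones not whole, and were rounded. The authors also deposited a second table, used here as a signal, whose libraries sum to 847343 to 1025286. It equals the counts within 0.01 for 25089 of 26783 shared symbols and for 42 of the 44 receptor genes, Grik1 and Grid1 being the exceptions. Gene positions are from GENCODE M21 on GRCm38.

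Tests used edgeR 4.0.16 in R 4.3.3 (quasi-likelihood, TMM, filterByExpr with a minimum count of 10, robust). The fraction comparison and interactions were fitted on all 40 libraries with 6 group means, and treatments within each fraction. Calls needed a Benjamini-Hochberg adjusted p under 0.05 over all genes tested. The code was tested on simulated data. Alternatives used RLE scaling, library totals, no filter, DESeq2 1.42.0, limma 3.58.1 with voom, fewer libraries, a replicate block, and limma on log2(signal + 0.5).

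The receptor genes, marker lists and partner lists were chosen with earlier results of these data known. Genes named with values are Grm3, Gabbr1, every gene higher in the pull-down, the 12 lowest with at least 5 CPM in the supernatant, the 3 smallest p of each treatment comparison, the most abundant of each family, and up to 4 per partner list. Some genes that this rule covers are not reported here by name, though they are included in the counts and family totals.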

Additional observations from a re-analysis of the deposited data

Results flagged for a closer look

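In 27 of 162 sets, each a named receptor gene in 1 fraction and 1 treatment group of 6 or 7 libraries, the highest or lowest library lay apart from the rest by Dixon's criterion at the 95% level. Chance marks about 1 in 20 such sets, though sets that share libraries are not independent. Samples 22, 1 and 8, all with pull-downs rich in Gm42418, account for 10, 8 and 4 of the 27. Sample 11, whose pull-down was also rich in Gm42418 (16.9%), is not among the samples marked. It shares its group with sample 22, and the criterion looks only at the highest or lowest library, so these 2 can hide each other. Pull-down Grin1 was 24.5 CPM in sample 11 and 37.7 CPM in sample 22, against 7.49 to 12.0 CPM in the rest of that group, and was not marked.

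In the pull-down of ORX HFD sample 22, Gabbr2 was low at 402 CPM, where the other libraries of the group had 599 to 693 CPM, and Grm3 was low at 21.0 CPM, where the others had 47.8 to 57.9 CPM. The same library was high for Gabra3 (12.0 CPM), Gabra5 (4.26 CPM), Gabrq (12.4 CPM), Grik1 (7.76 CPM), Grin2a (19.3 CPM), Grin2b (64.0 CPM), Grin2d (1.63 CPM) and Grm5 (45.3 CPM).

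In the pull-down of sham HFD sample 1, Gria1 was low at 660 CPM, where the other 5 had 1069 to 1169 CPM. It was high for Gabra5 (6.10 CPM), Gabrq (6.85 CPM), Gria4 (46.4 CPM), Grin1 (27.9 CPM), Grin2a (13.6 CPM), Grin2b (66.5 CPM) and Grm5 (34.7 CPM). The pull-down of sham chow sample 8 was high for Gabrb2 (2.77 CPM), Gabrq (7.72 CPM), Grin1 (35.7 CPM) and Grin2d (3.17 CPM).

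The pull-down of sham chow sample 12 was low for Gabrb1, at 269.9 CPM where the other 6 had 401 to 497 CPM. The pull-down of sham HFD sample 20 was the only one of its group with a count of Gabre (0.0497 CPM). Among the supernatants, ORX HFD sample 2 was high for Gabra3 (189 CPM), sham HFD sample 20 for Grin1 (130.5 CPM) and sham chow sample 7 for Grid1 (69.6 CPM).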

How the results depend on the processing

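Over 9 alternatives, 7 to 10 receptor genes were called higher and 30 to 32 lower in the pull-down, and 0 passed in any treatment comparison. Of 417 recomputed values of named genes, 412 kept their direction and their side of the threshold. Scaling to library totals without mitochondrial genes and Gm42418 turned Gabbr1 to -0.0148 and Grik5 to -0.0319, where the median of all genes was -0.37. There 36.8% of all calls were higher, against 49.7% under TMM. Grik5 lost its call under RLE scaling, without the samples rich in Gm42418 and in the second table, and kept it in 5 others. Grin3a, outside that tally, passed in 3 of 9 alternatives: with no filter on low counts (0.21), without sample number 12 (0.20) and, lower, with library totals (-0.21). Cause was not tested for any of these.

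With sample number as a replicate block, 9 receptor genes were higher and 30 lower. The deviations of same-numbered libraries correlated at -0.07 to 0.15 (median 0.03), over 0.1 in 5 of 20 numbers. Each pull-down was also compared with all 20 supernatants, and 6 of 20 pull-downs correlated best with the supernatant of their own number. Gabra2 was high in both fractions of sample numbers 14, 20 and 21. Since the labels do not say whether same-numbered libraries are paired, the main fit did not treat them as pairs. Whether they share a source was not tested. The block was not run for treatments within a fraction, where groups share no number. The planned count test on reads recovered from the second table was not run, because its values did not give whole reads, and limma on that table took its place. That alternative and the one without sample number 12 were chosen after seeing the data. Depth limits Gabra6, Gabrr1, Gabrr2 and Grin3b, which could not be tested.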
